A study of Ovis aries with 40 samples.

Results

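A set of named genes whose signal was within 2-fold between 70 and 135 d of gestation and was lower in newborn and growing lambs was examined in sheep longissimus dorsi, the long muscle of the back. Probes were chosen on the deposited log2 values. A probe had to carry a gene name, and its Ujumqin means at 70 and 135 d had to differ by less than 1 log2 unit (2-fold). The 1081 probes of 1605 named ones that met this were ranked by the 135 d mean minus the highest of the birth, 1 month and 2 month means, and the top 60 were taken. Leaving out 5 of these as ribosomal protein, globin or collagen probes left 55 of the 15008 probes of the array, of which 54 probes, for 36 genes, enter the counts. All 54 were thus chosen for being lower after birth, so that difference is described without a test. The word switched off, which might be used of such a set, was not borne out by the data. The median probe was 1.92-fold higher at 135 d than in the highest lamb group, and 34 of 54 were well above background, by the scanner's own flag, on all 9 lamb arrays.

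The study compared Texel, a heavily muscled breed, with Ujumqin, an indigenous Chinese breed with less muscle and more fat. Purebred ewes of both breeds were synchronized in estrus and inseminated with semen of their own breed, and fetuses were taken by caesarean section. Texel fetuses were measured at 70 d (T70, n = 3), 85 d (T85, n = 3), 100 d (T100, n = 4), 120 d (T120, n = 3) and 135 d (T135, n = 3), and Ujumqin fetuses at the same days (U70, U85, U100, U120 and U135, each n = 3). Ujumqin lambs were measured at birth, 1 month and 2 months (each n = 3), and no Texel lamb was. The fetuses and lambs themselves received no treatment, while the ewes had been given hormones for synchronization. The RNA of each animal was labelled with Cy3 and hybridized to 1 Agilent sheep array, which gave 31 fetal and 9 lamb arrays. All U135 fetuses and all 2 month lambs were labelled female, and birth and 1 month each held 2 females and 1 male.

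The share of probes well above background ranged from 81.3% to 90.9% on the fetal arrays and from 79.3% to 87.5% on the lamb arrays, and the median signal from 234 to 708 and from 218 to 359, before normalization. The arrays lay on 5 slides. Of the Ujumqin fetal groups, only U135 shared a slide in full with a lamb group, that of 2 months. Markers of skeletal muscle on the array (TNNC2 and MYLPF, parts of the contractile apparatus, and MB, myoglobin) were bright in every group, as the tissue label says, with log2 means at U135 from 15.42 to 18.97.

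Muscle of the sheep fetus forms its fibres before birth and afterwards grows by enlarging them. While it forms, vessels and nerves grow into it, and endothelial and guidance receptors, secreted growth factors and the proteins that bind them, and the enzymes that remodel the matrix are known to act in that process. The genes were grouped accordingly as transcription factors, receptors and ligands of vessels and guidance, growth factors and their regulators, proteases and their inhibitors, transport and metabolism, immune and adhesion molecules, and genes that were placed in no group. The probes of 1 gene measure the same transcripts and were not treated as replicates.

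The probes are 60-base oligonucleotides, printed 5′ to 3′ as the scanner files give them. HIF3A, SLPI, ANGPT2 and CXCR4 are shown because their pairs of probes sit within a few bases of each other on the transcript, so that both readings come from nearly the same target. The stretch in capitals is shared with the other probe of the gene. KIT is shown because its probes overlap in part, and MMP1 because its probes share 59 bases, only 1 of which was chosen. KDR and NRP2 are shown because their probes share no stretch longer than 7 bases (no capitals), and both were nevertheless among the 54.
HIF3A probe 1, first 30 bases: cACTTTCAGCTAGCAGCAGGCTTGGCCCAG
SLPI probe 1: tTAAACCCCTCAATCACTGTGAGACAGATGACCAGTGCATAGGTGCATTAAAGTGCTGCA
ANGPT2 probe 1: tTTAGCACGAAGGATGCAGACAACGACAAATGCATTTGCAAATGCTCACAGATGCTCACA
CXCR4 probe 1: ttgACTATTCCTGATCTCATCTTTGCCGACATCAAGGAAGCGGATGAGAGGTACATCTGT
KIT probe 1: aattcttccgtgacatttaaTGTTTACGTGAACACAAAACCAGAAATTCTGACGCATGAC
KIT probe 2: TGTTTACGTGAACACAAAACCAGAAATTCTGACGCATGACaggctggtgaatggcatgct
MMP1: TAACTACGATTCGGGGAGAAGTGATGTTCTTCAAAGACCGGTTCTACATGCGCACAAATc
MMP1 other probe: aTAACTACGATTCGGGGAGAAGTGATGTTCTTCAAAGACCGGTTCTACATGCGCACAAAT
KDR probe 1: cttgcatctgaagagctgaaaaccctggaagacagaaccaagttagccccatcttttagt
KDR probe 2: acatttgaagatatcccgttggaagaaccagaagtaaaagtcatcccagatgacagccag
NRP2 probe 1: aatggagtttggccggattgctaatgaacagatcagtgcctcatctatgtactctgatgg
NRP2 probe 2: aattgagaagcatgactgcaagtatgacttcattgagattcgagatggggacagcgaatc

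Across the 54 probes, the U135 mean exceeded the highest lamb mean by a median of 0.94 log2 units, from -0.46 (MYD88) to 3.04 (HIF3A probe 1). The same measure had a median of -0.44 over all named probes and -0.31 over all probes. The difference was 2-fold or more for 19 of 54, against 2.85% of all probes in that direction, and in 38 of 54 every U135 array was above every lamb array, against 11.2% of all probes. These shares follow from the choice of the probes. The highest lamb group was birth for 28 probes, 1 month for 13 and 2 months for 13. The lowest was 2 months for 22, birth for 16 and 1 month for 16. The values just inside the limit of the choice, on the deposited scale, were 0.78 (FGF7 probe 3), 0.77 (NRP2 probe 2) and 0.77 (MCP-3 probe 2), and just outside they were 0.76 (a second probe of IGFBP4), 0.75 (a further probe of ANGPT2) and 0.74 (IGF1). In bulk muscle, fewer cells of a type and less RNA per cell cannot be told apart.

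**Figure D1:**
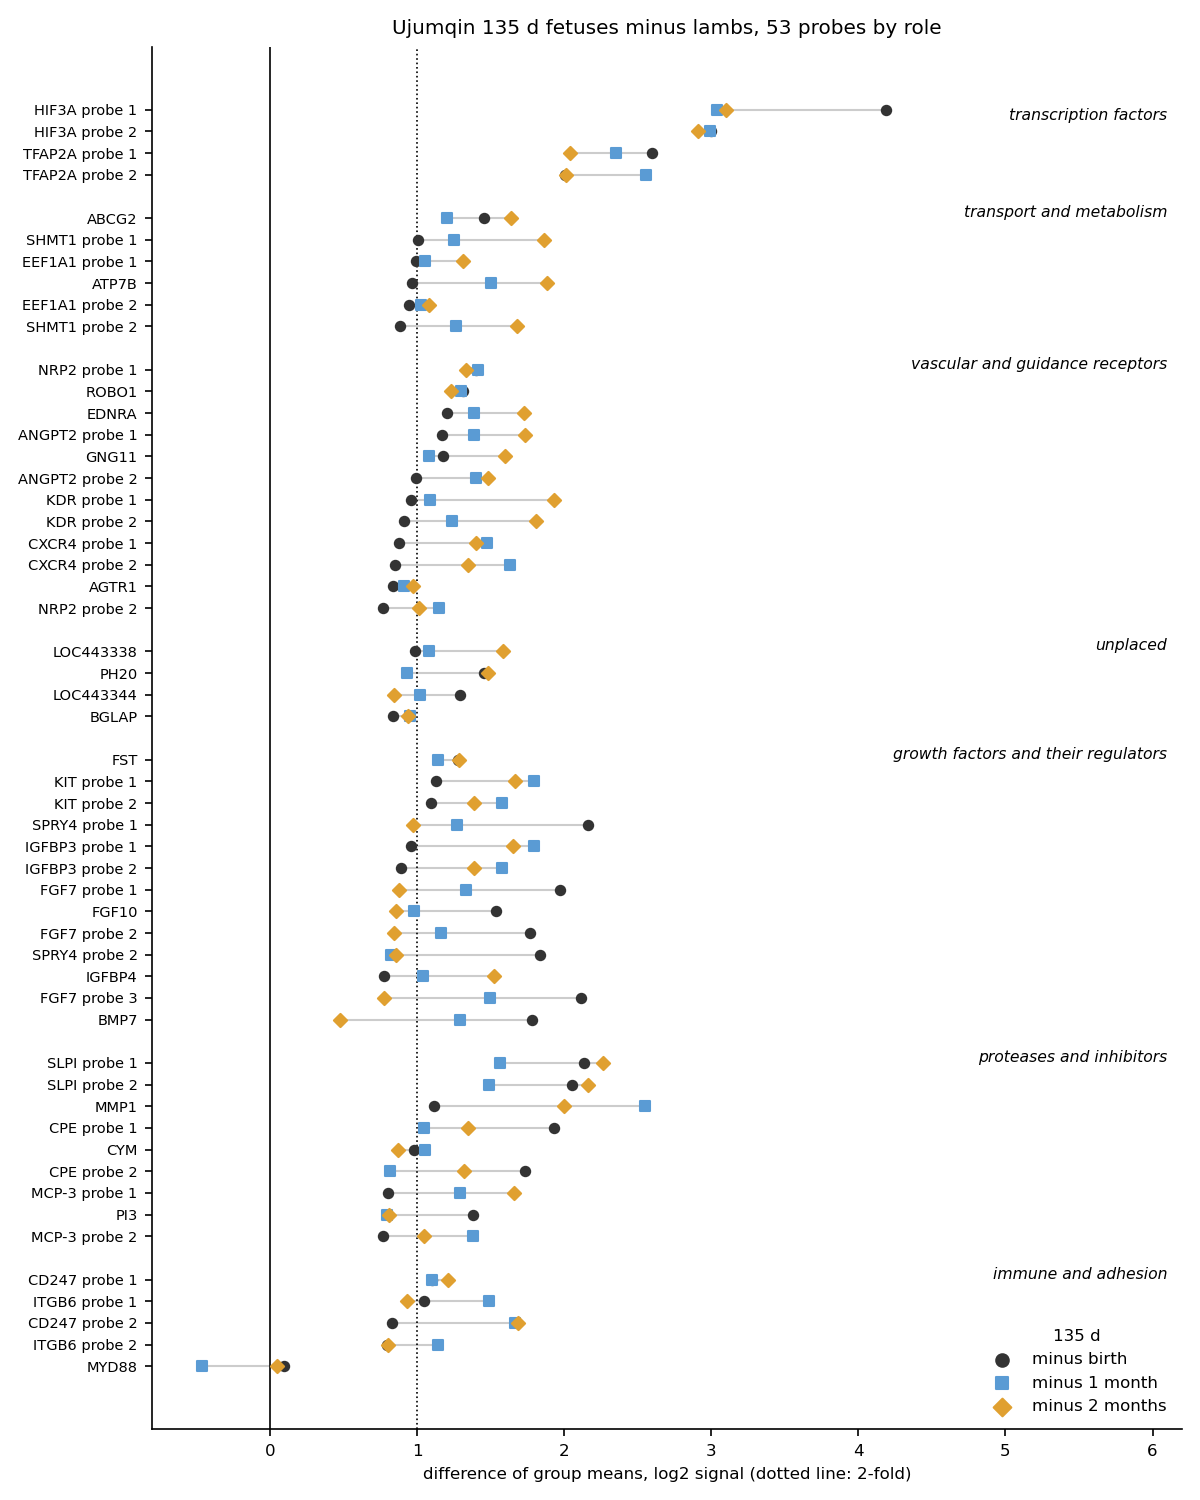
Difference of log2 signal means, U135 minus birth (circles), minus 1 month (squares) and minus 2 months (diamonds), for 53 of the 54 probes grouped by role, with the 2-fold line dotted. HIF3A probes lie farthest to the right, the TFAP2A points are against lambs that were not well above background, and MYD88 is the only probe with a mean below a lamb mean.

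The transcription factors were HIF3A and TFAP2A, with 4 probes in all. HIF3A encodes an alpha subunit of the hypoxia-inducible factors, which mediate the response to low oxygen and of which this one is also known as a restraint on the others. HIF3A probe 1 gave log2 signals of 9.07, 8.64 and 8.38 in U135, 4.63, 4.49 and 4.41 at birth, 5.53, 5.74 and 5.71 at 1 month and 5.44, 5.96 and 5.40 at 2 months. All U135 values lay above all lamb values, the lambs at birth (2 of 3 well above background) were lowest, and the gap was 18.2-fold to birth, 8.23-fold to 1 month and 8.58-fold to 2 months. With another background correction (normexp on the raw spot and local background signals, with an offset of 50) the difference to the highest lamb mean was 1.53 on the log2 scale for HIF3A probe 1, against 3.04, and 1.59 for probe 2, against 2.91. An added offset by itself narrows log2 differences at low signal, and its part was not tested. HIF3A probe 2, with 59 bases in common, gave 9.20, 8.56 and 8.46 in U135, 5.87, 4.95 and 6.40 at birth, 5.93, 5.65 and 5.66 at 1 month and 5.82, 5.84 and 5.83 at 2 months. Its lambs were about level at the 3 ages, with differences of 3.00, 2.99 and 2.91, so the lower value at birth was not seen with both probes. Over the fetal arrays HIF3A probe 1 ranged only from 7.94 to 9.26 (n = 31), and no fetal array of either breed reached the lamb range of 4.41 to 5.96 (n = 9).

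TFAP2A encodes AP-2 alpha, a factor of ectoderm and neural crest. TFAP2A probe 1 gave log2 signals of 5.82, 4.61 and 4.29 in U135, 1.55, 1.54 and 3.84 at birth, 2.91, 1.84 and 2.92 at 1 month and 4.16, 1.35 and 3.10 at 2 months. It was well above background on all U135 arrays and on no lamb array, so that U135 was at least 1.83-fold higher than birth, 2.99-fold higher than 1 month and 1.49-fold higher than 2 months. Such a bound divides the fetal mean by the dimmest signal still well above background on each lamb array (by the measured lamb signal if it exceeded that). Bounds of this kind hold for the processed signal only. With normexp the difference of TFAP2A probe 1 to the highest lamb mean was 0.21 log2 units, against 2.04. TFAP2A probe 2 was well above background on 1 of 3 U135 arrays and gave 5.13, 3.49 and 3.85 in U135, 1.55, 3.36 and 1.56 at birth, 1.72, 1.51 and 1.56 at 1 month and 2.36, 1.94 and 2.13 at 2 months. TFAP2A was thus at a low level on both sides.

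The receptors and ligands of vessels and guidance had 11 of 12 probes free of overlap between U135 and the lambs, against 38 of all 54 and 11.2% of all probes. Their median difference was 0.98, against 0.94 for the 54. Such counts by role follow from the choice and include pairs of probes with most bases in common. NRP2 encodes neuropilin-2, a co-receptor of semaphorins and vascular endothelial growth factors. NRP2 probe 1 gave 5.28, 5.68 and 6.0 in U135, 4.10, 4.68 and 3.99 at birth, 4.41, 3.98 and 4.32 at 1 month and 4.16, 4.88 and 3.92 at 2 months, and all U135 values were above all lamb values, with 5 of 9 lamb arrays well above background, by 2.63-, 2.67- and 2.51-fold in the means. NRP2 probe 2 lies elsewhere on the transcript and gave 4.97, 5.05 and 5.06 in U135, 4.49, 4.50 and 3.80 at birth, 4.17, 3.75 and 3.72 at 1 month and 4.31, 4.04 and 3.68 at 2 months. ROBO1 encodes a receptor of the Slit guidance proteins. ROBO1 gave 5.16, 5.36 and 4.95 in U135, 3.56, 4.60 and 3.36 at birth, 4.23, 3.74 and 3.59 at 1 month and 4.47, 3.90 and 3.40 at 2 months, again with no overlap, and U135 was at least 2.16-fold above birth and 1.72-fold above 2 months, where no lamb array was well above background, and 2.47-fold above 1 month (2 of 3). With normexp the difference to the highest lamb mean was 0.11 for ROBO1, against 1.23, and 0.22 for NRP2 probe 1, against 1.33.

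KDR encodes the main receptor of vascular endothelial growth factor on endothelial cells, and ANGPT2 a ligand of the endothelial receptor TEK that loosens vessel walls. KDR probe 1 gave log2 signals of 8.87, 9.26 and 9.28 in U135, 8.51, 8.34 and 7.69 at birth, 7.57, 7.88 and 8.71 at 1 month and 6.96, 7.57 and 7.08 at 2 months. The means declined with age after birth, and the gap widened from 1.94-fold at birth to 2.12-fold at 1 month and 3.81-fold at 2 months, though one lamb of 1 month, at 8.71, read almost as high as the lowest U135 fetus. KDR probe 2 showed the same order (0.91, 1.24 and 1.81). ANGPT2 probe 1 gave 8.98, 9.58 and 9.25 in U135, 7.87, 8.34 and 8.09 at birth, 8.15, 7.58 and 7.92 at 1 month and 7.96, 7.94 and 6.70 at 2 months. All U135 values were higher than all lamb values, by 2.25-fold at birth up to 3.33-fold at 2 months, and ANGPT2 probe 2 differed by 0.99 to 1.48 log2 units.

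Receptors of vasoactive peptides and of chemokines were in the same group. EDNRA, the type A receptor of endothelin, gave 6.85, 7.57 and 7.47 in U135, 6.24, 6.26 and 5.77 at birth, 5.94, 5.40 and 6.40 at 1 month and 5.79, 5.67 and 5.24 at 2 months. The 3 fetuses lay above the 9 lambs, by 2.31-fold at birth and 3.31-fold at 2 months. AGTR1, the type 1 receptor of angiotensin II, gave 14.46, 14.26 and 12.88 in U135, 13.08, 13.34 and 12.67 at birth, 12.90, 12.74 and 13.21 at 1 month and 13.38, 13.00 and 12.30 at 2 months, and one U135 fetus at 12.88 lay among the lambs. CXCR4, the receptor of the chemokine CXCL12, is read by a pair of probes that share 57 bases. CXCR4 probe 1 gave 8.68, 9.53 and 9.70 in U135, 8.38, 8.25 and 8.65 at birth, 6.92, 7.91 and 8.65 at 1 month and 7.80, 7.70 and 8.20 at 2 months, with 1.83-fold at birth, 2.78-fold at 1 month and 2.65-fold at 2 months, and the lowest fetus exceeded the highest lambs by less than 0.05. CXCR4 probe 2 differed by 0.85, 1.64 and 1.35. GNG11, a gamma subunit of G proteins, was the brightest gene of the set and gave 17.29, 17.13 and 17.38 in U135, 16.35, 16.28 and 15.65 at birth, 16.25, 15.84 and 16.48 at 1 month and 15.65, 15.91 and 15.46 at 2 months. All U135 fetuses were thus above all lambs, while fetuses of U70, U85 and T120 lay among the lambs.

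Growth factors and their regulators contributed 13 probes of 8 genes. Of these, 3 probes differed 2-fold or more, against 19 of all 54 and 2.85% of all probes, and 8 did not overlap, against 38 of 54 and 11.2%. FST encodes follistatin, which binds and neutralizes activins and related factors. FST gave log2 signals of 14.75, 14.55 and 14.34 in U135, 13.66, 12.50 and 13.63 at birth, 13.24, 13.13 and 13.84 at 1 month and 13.70, 13.14 and 12.93 at 2 months, a separation of 2.43-, 2.21- and 2.44-fold. KIT, the receptor of stem cell factor and a marker of mast cells and melanocytes, was dim. KIT probe 2 gave 5.20, 5.60 and 5.20 in U135, 4.48, 4.43 and 3.81 at birth, 4.15, 4.04 and 3.08 at 1 month and 4.24, 4.08 and 3.51 at 2 months, with 2.13-fold at birth (1 of 3 lambs well above background) and 2.99-fold at 1 month (2 of 3), and at least 2.00-fold at 2 months. With normexp the difference of KIT probe 2 to the highest lamb mean was 0.19, against 1.09. KIT probe 1, which overlaps it by 40 bases, gave 3.14, 4.31 and 3.16 in U135, 2.52, 3.14 and 1.56 at birth, 2.21, 1.44 and 1.56 at 1 month and 1.91, 1.66 and 2.03 at 2 months and was well above background on 1 of 3 U135 arrays and on no lamb array.

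The binding proteins of the insulin-like growth factors stood at high signal. IGFBP3 probe 1 gave 14.03, 13.12 and 13.78 in U135, 12.75, 12.86 and 12.43 at birth, 12.33, 11.58 and 11.63 at 1 month and 12.04, 11.89 and 12.05 at 2 months. Birth was closest to U135 (1.95-fold) and 1 month farthest (3.47-fold), as also with IGFBP3 probe 2 (1.86- and 2.99-fold). IGFBP4 gave 14.34, 14.45 and 14.77 in U135, 14.02, 13.84 and 13.36 at birth, 13.66, 13.59 and 13.17 at 1 month and 12.98, 13.27 and 12.73 at 2 months, and its means went down from birth to 2 months, with 1.71-, 2.06- and 2.87-fold against U135.

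SPRY4, an inhibitor of receptor tyrosine kinase signalling, and FGF7, a fibroblast growth factor made by mesenchymal cells, had the opposite order among lambs. SPRY4 probe 1 gave 8.49, 8.87 and 8.84 in U135, 6.72, 6.32 and 6.66 at birth, 7.04, 7.61 and 7.73 at 1 month and 7.90, 7.92 and 7.47 at 2 months. Newborn lambs were lowest and 2 month lambs nearest the fetuses, with 4.48-, 2.41- and 1.96-fold. SPRY4 probe 2 also had newborns lowest (1.84, 0.83 and 0.86 log2 units). FGF7 probe 3 gave 8.63, 8.37 and 8.79 in U135, 6.10, 6.32 and 7.03 at birth, 6.94, 6.91 and 7.45 at 1 month and 7.79, 8.85 and 6.84 at 2 months, and one lamb of 2 months at 8.85 was above every U135 fetus. FGF7 probes 1 and 2 differed from birth by 1.97 and 1.77 and from 2 months by 0.88 and 0.85. All probes of SPRY4, FGF7, CPE and HIF3A were among the 16 with their lowest lamb mean at birth, though the lamb means of HIF3A probe 2 were about level.

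FGF10 and BMP7, a growth factor of lung and limb buds and a bone morphogenetic protein, were at the limit of detection. FGF10 gave 4.59, 4.01 and 4.60 in U135, 1.55, 3.56 and 3.47 at birth, 2.54, 4.26 and 3.46 at 1 month and 3.84, 4.45 and 2.33 at 2 months, and it was well above background on 1 of 3 U135 and 1 of 9 lamb arrays. BMP7 gave 4.13 and 3.91 on the 2 U135 arrays whose spot was kept, against 1.55, 3.62 and 1.56 at birth, 1.97, 3.00 and 3.21 at 1 month and 2.45, 5.73 and 2.46 at 2 months. No U135 array was well above background for BMP7, the brightest single value was a 2 month lamb, and no fold is given. The scanner software had marked the remaining U135 spot as an outlier, and the deposited table kept it.

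Among the proteases and their inhibitors, MMP1 had the widest range and was not level through gestation. MMP1 is interstitial collagenase, which cuts fibrillar collagen. Texel log2 signals were 5.12, 5.27 and 6.56 in T70, 8.51, 8.35 and 9.10 in T85, 9.07, 9.52, 9.19 and 9.93 in T100, 6.77, 6.23 and 7.57 in T120 and 4.15, 5.62 and 6.05 in T135. Ujumqin signals were 3.95, 4.06 and 5.22 in U70, 7.52, 7.18 and 8.60 in U85, 9.29, 9.65 and 8.52 in U100 and 7.80, 7.85 and 8.63 in U120. Both breeds were highest at 100 d, and the rule, which compared only 70 with 135 d, did not see this peak. At 135 d the kept Ujumqin arrays read 5.66 and 2.60, and the remaining spot had been marked as an outlier. The lambs read 3.82, 2.94 and 2.30 at birth, 1.63, 1.57 and 1.56 at 1 month and 1.72, 1.75 and 2.92 at 2 months, none well above background. Against these, T100 was at least 39.3-, 68.6- and 34.1-fold higher and U100 at least 32.5-, 56.7- and 28.2-fold, while the U135 values, of which only the higher was well above background, overlapped those of the lambs at birth and at 2 months. The U135 difference thus rests on 1 array.

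SLPI and PI3 (elafin) inhibit serine proteases of leukocytes and epithelia. SLPI probe 1 gave 9.33, 9.09 and 9.34 in U135, 7.47, 6.37 and 7.51 at birth, 9.28, 6.29 and 7.49 at 1 month and 6.82, 8.32 and 5.82 at 2 months. The U135 fetuses lay within 0.25 of each other, but the lambs spread over 5.82 to 9.28, and one lamb of 1 month read as the fetuses did. SLPI probe 2 gave the same lamb 9.28. PI3 gave 8.21, 9.40 and 8.51 in U135, 7.36, 6.85 and 7.78 at birth, 7.72, 7.96 and 8.05 at 1 month and 7.52, 7.82 and 8.35 at 2 months, and one lamb of 2 months lay above the lowest fetus. The mean differences were 4.39-, 2.96- and 4.80-fold for SLPI probe 1 and 2.60-, 1.74- and 1.76-fold for PI3.

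CPE trims the basic residues from prohormones, and MCP-3 is mast cell proteinase-3. CPE probe 1 gave 11.73, 11.66 and 11.56 in U135, 9.64, 9.52 and 9.99 at birth, 10.96, 10.49 and 10.36 at 1 month and 10.19, 10.60 and 10.13 at 2 months. Birth was lowest (3.82-fold) and 1 month nearest to U135 (2.07-fold), and CPE probe 2 had the same order (3.33- and 1.76-fold). MCP-3 probe 1 gave 7.11, 7.33 and 7.51 in U135, 6.54, 6.49 and 6.51 at birth, 5.41, 6.43 and 6.23 at 1 month and 5.93, 5.45 and 5.58 at 2 months, a separation of every fetus from every lamb that U135 showed least, since the other fetal groups had means from 8.14 to 9.29. CYM, the milk-clotting protease chymosin of the young stomach, gave 3.84, 1.84 and 2.05 in U135, 1.55, 1.69 and 1.56 at birth, 1.5, 1.49 and 1.56 at 1 month and 1.64, 1.49 and 1.97 at 2 months, none of them well above background, so that no difference is read from it.

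**Figure D2:**
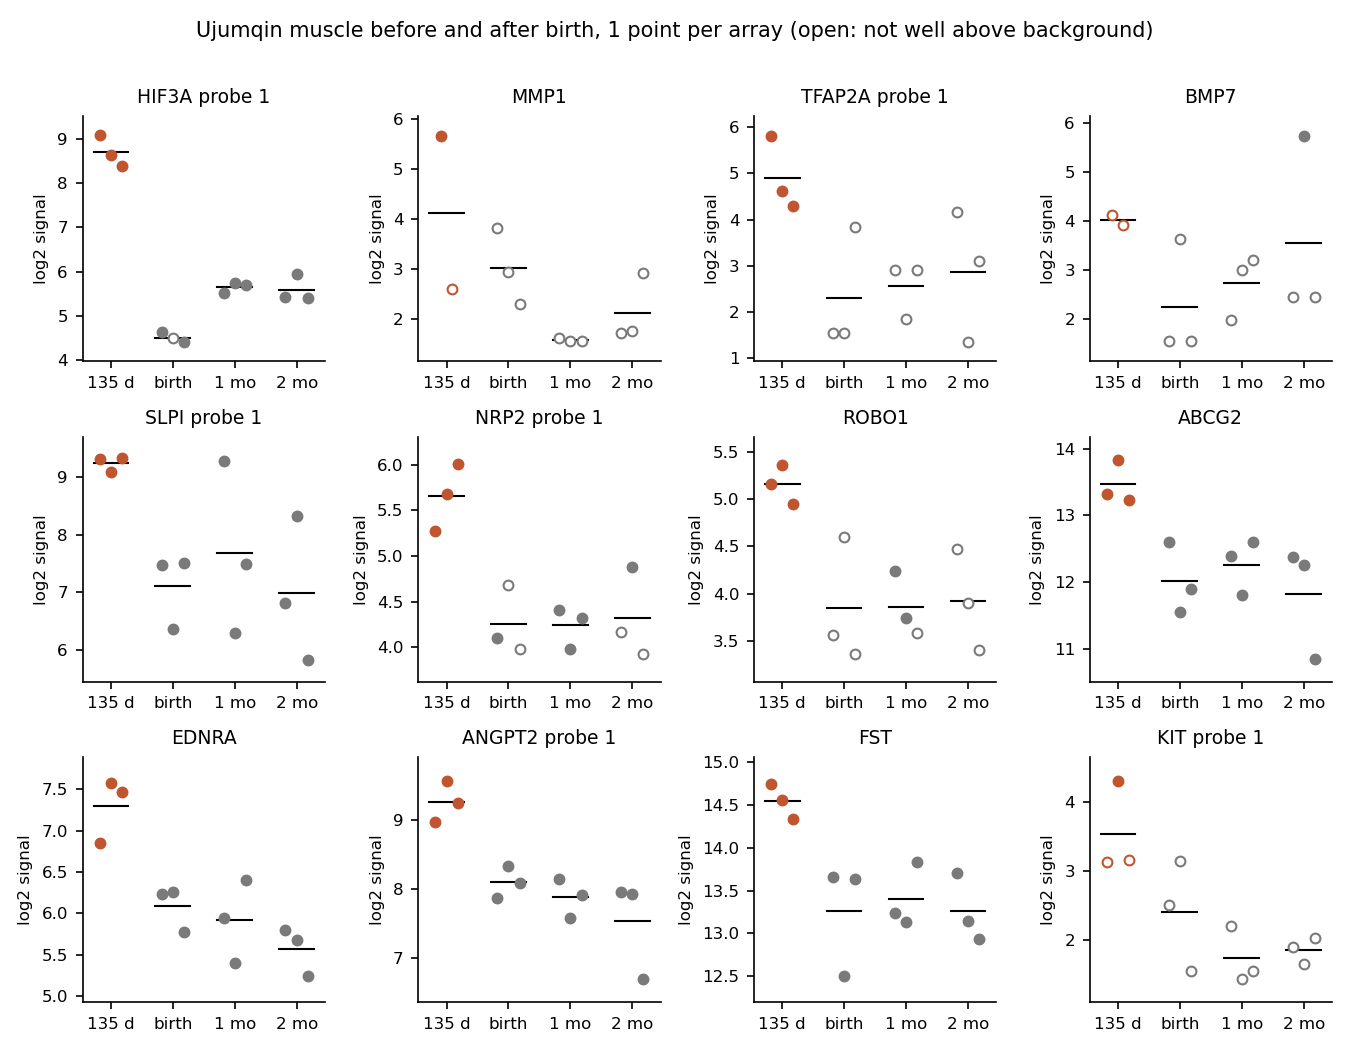
Log2 signal of 12 probes in every Ujumqin array at 135 d of gestation (orange) and at birth, 1 month and 2 months (grey), with 1 point per array, open where the array was not well above background, and a bar at the group mean. Axes differ between panels. HIF3A and ABCG2 separate fetuses from lambs at levels that both groups measured, TFAP2A and KIT sit near background in lambs, and SLPI has 1 lamb of 1 month at the fetal level.

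Transport and metabolism were represented by 4 genes, and all 6 probes separated U135 from the lambs, against 38 of all 54 and 11.2% of all probes. ABCG2, an efflux transporter of many substrates, gave 13.32, 13.83 and 13.23 in U135, 12.59, 11.54 and 11.89 at birth, 12.38, 11.80 and 12.59 at 1 month and 12.37, 12.25 and 10.85 at 2 months, or 2.74-, 2.30- and 3.11-fold. ATP7B, a copper-transporting ATPase, gave 5.85, 5.78 and 6.50 in U135, 4.86, 5.55 and 4.82 at birth, 4.72, 4.54 and 4.36 at 1 month and 4.46, 4.65 and 3.37 at 2 months, and its lamb means declined with age from 1.95- to 3.68-fold below U135. SHMT1 (named SHMT2 in the files) encodes a serine hydroxymethyltransferase of one-carbon metabolism. SHMT1 probe 1 gave 7.87, 7.96 and 7.90 in U135, 6.99, 6.51 and 7.20 at birth, 6.47, 6.37 and 7.13 at 1 month and 6.47, 5.71 and 5.96 at 2 months, with 2.01-fold at birth and 3.64-fold at 2 months. EEF1A1, an elongation factor of translation, gave 13.68, 13.86 and 13.71 in U135, 12.78, 12.69 and 12.80 at birth, 12.86, 12.85 and 12.38 at 1 month and 12.57, 12.64 and 12.11 at 2 months with probe 1, and the differences of its probes (0.99 and 0.95) were close although they share only 14 bases. EEF1A1 has near-identical copies in mammalian genomes, so its probes may read more than 1 locus.

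Of the immune and adhesion genes, CD247, the zeta chain of the T cell receptor, gave 7.77, 8.39 and 7.33 in U135, 7.30, 6.63 and 6.25 at birth, 6.35, 6.55 and 7.28 at 1 month and 7.10, 6.06 and 6.70 at 2 months with probe 1, and the lowest fetus was 0.03 above the highest lamb. CD247 probe 2 differed by 0.83, 1.66 and 1.69. ITGB6, an integrin subunit of epithelia that activates transforming growth factor beta, gave 9.69, 9.40 and 9.74 in U135, 8.22, 8.41 and 9.05 at birth, 8.62, 8.0 and 7.73 at 1 month and 8.96, 9.39 and 7.67 at 2 months with probe 1. Fetuses and lambs nearly met there, and with ITGB6 probe 2 they overlapped. MYD88, an adaptor of Toll-like receptors, gave 5.45 and 4.84 on the 2 kept U135 arrays against 5.05, 5.20 and 4.91 at birth, 5.77, 5.93 and 5.13 at 1 month and 5.41, 4.83 and 5.05 at 2 months. Its mean at 1 month was above U135, against the direction of the choice. The deposited table kept the U135 spot that the scanner software had marked as an outlier.

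The remaining 4 genes were placed in no group. LOC443338 is unnamed in the annotation used and was bright, with 14.91, 14.96 and 14.79 in U135, 13.84, 13.91 and 13.96 at birth, 13.68, 13.92 and 13.82 at 1 month and 13.42, 13.27 and 13.21 at 2 months. All fetuses were above all lambs, by 1.98-fold at birth and 3.00-fold at 2 months. BGLAP, osteocalcin, a protein of bone matrix, gave 8.83, 8.34 and 8.32 in U135, 7.54, 7.45 and 8.0 at birth, 7.05, 7.82 and 7.77 at 1 month and 8.06, 6.90 and 7.73 at 2 months. LOC443344, annotated as an oestrogen-dependent oviduct protein, gave 10.26, 9.96 and 10.20 in U135, 8.95, 8.75 and 8.85 at birth, 8.82, 8.70 and 9.83 at 1 month and 9.66, 8.86 and 9.37 at 2 months. PH20, the hyaluronidase of sperm, gave 4.03, 2.96 and 1.99 in U135, 1.55, 1.51 and 1.56 at birth, 1.64, 2.99 and 1.56 at 1 month and 1.49, 1.5 and 1.53 at 2 months and was not well above background on any of these 12 arrays, so no difference is read from it.

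Since group and slide were confounded for most groups, differences were also taken within slides. Each was taken against the lamb group on that slide, not against the highest of the 3 lamb means, so its size does not compare with the median above. On the slide that held U135 and 2 months in full, the 54 probes differed by a median of 1.37 log2 units, all 54 in the same direction, 39 by 2-fold or more and 44 without overlap, while the median of all probes was -0.01. Both groups had served for the choice, so this direction largely follows from it. The shares of all probes at 2-fold or without overlap were not counted within slides, so those counts of the 54 have nothing to be read against. The Texel arrays, none of which entered the choice, allowed a further description against the same lambs. The 2 T135 fetuses on that slide exceeded the 2 month lambs by a median of 1.44, against -0.02 over all probes (54 of 54 positive, lowest PI3 at 0.21). On another slide 5 Texel fetuses of 70 and 85 d exceeded the newborn lambs by a median of 1.31, against 0.02 over all probes (52 of 54 positive, lowest ITGB6 probe 2 at -0.30). On one more slide 5 fetuses of 100 and 120 d, 4 of them Texel, exceeded the 1 month lambs by a median of 1.5, against -0.02 over all probes (53 of 54 positive, lowest MYD88 at -0.05). HIF3A probe 1 differed by 3.10, 3.01, 3.91 and 2.61 in these comparisons, in that order.

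All 16 Texel arrays were above all 9 lamb arrays for 21 of 54 probes, all 9 arrays of U85, U100 and U120 for 36, and all 31 fetal arrays for 18. The 18 comprised both probes of HIF3A, EEF1A1, SHMT1, IGFBP3 and CD247, KIT probe 2, CPE probe 1, ANGPT2 probe 2, MCP-3 probe 1, ABCG2, EDNRA, FST and LOC443338. With these 18 probes no fetus of either breed at any stage read as low as any lamb, which does not extend to every probe of the same genes. The lambs serve in all of these comparisons, and they were used for the choice, so the counts follow in part from it. The shares of all probes were not counted for these comparisons.

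The array carries other probes for 19 of the 36 genes, 23 in all, which the choice passed over. Of these, 19 were lower in the lambs than at U135 and 2 by 2-fold or more, those of ATP7B (1.31) and FST (1.0). The second probe of IGFBP4 (0.75) and further probes of ANGPT2 (0.75 and 0.66) and EEF1A1 (0.99) gave differences near those of the chosen ones. Others did not. The second EDNRA probe gave U135 log2 signals of 10.34, 10.52 and 10.43 against 11.21, 10.93 and 10.72 at birth, a difference of -0.52 to the highest lamb mean. It was brighter than the chosen EDNRA probe and pointed the other way, so the readings of this gene disagree. Of the 3 other FGF10 probes, the brightest gave -1.16 and the others -0.51 and 0.13. The other MYD88 probe gave -0.30. Further KDR probes gave 0.36 and 0.30, below the 0.96 and 0.91 of the chosen pair. The second MMP1 probe, shifted by 1 base from the chosen one as printed above, was not well above background on any U135 or lamb array, so no difference is read from it.

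**Figure D3:**
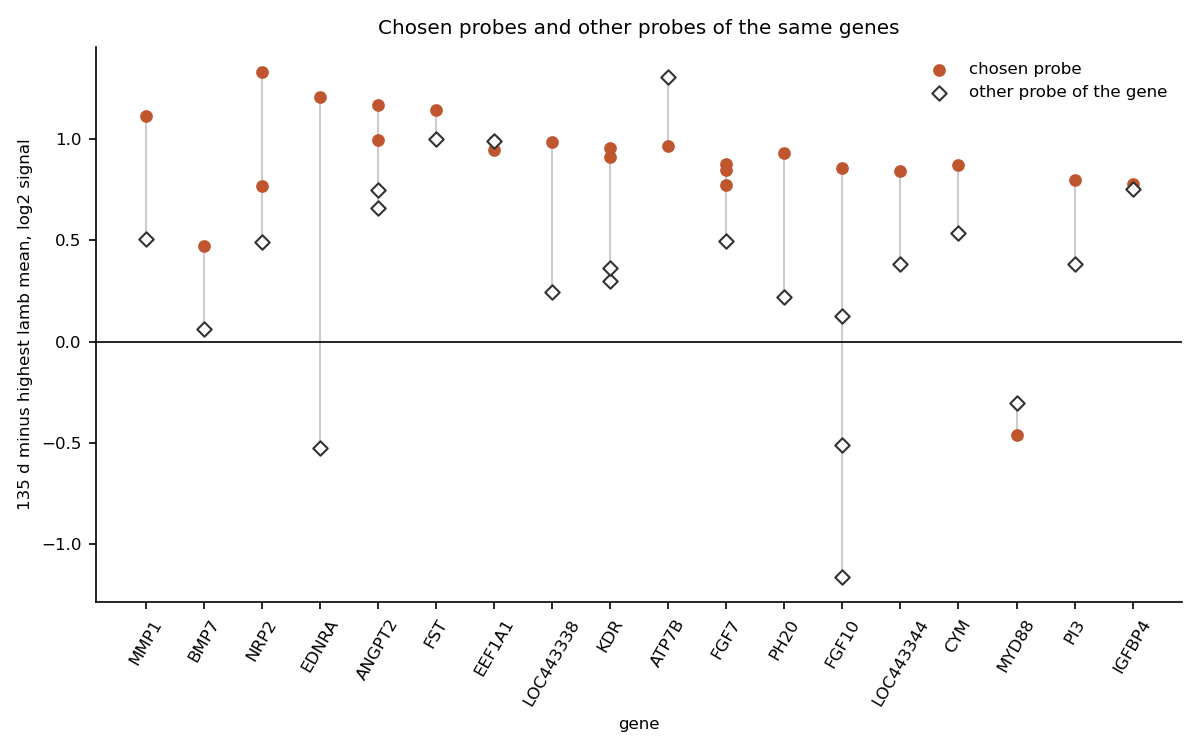
For 18 of the 19 genes with further probes on the array, the difference between the U135 mean and the highest lamb mean (log2 signal) of the chosen probes (filled circles) and of the other probes of the same gene (open diamonds). The open diamonds lie below 0 for EDNRA, MYD88 and 2 of 3 of FGF10, and above the chosen probe for ATP7B and MYD88.

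How the genes varied through gestation was tested where the choice had not used the arrays. Within Texel, 18 of 54 probes changed over the 5 stages (limma F test, adjusted p under 0.05), against 38.6% of all probes tested. MMP1 changed most in size, with stage means over a range of 4.15 log2 units (adjusted p = 4.41e-05), followed by TFAP2A probes 2 and 1 (2.92 and 2.43), ROBO1 (1.72) and both probes of CPE and ITGB6. HIF3A did not pass the test with either probe.

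From 70 to 135 d in Texel, 4 of 54 probes rose 2-fold or more (adjusted p under 0.05), against 10.3% of all probes, and 5 fell, against 11.0%. TFAP2A probe 1 went from 3.66, 4.81 and 4.18 in T70 to 6.86, 5.82 and 6.42 in T135. It rose by 2.15 ± 0.30 (SE, adjusted p = 9.61e-05), and TFAP2A probe 2 by 2.25 ± 0.47 (adjusted p = 0.00190), so that in Texel its last fetal level was its highest but for 120 d. In Ujumqin, where the choice asked for a small difference, TFAP2A probe 1 stood at 4.33 ± 0.56 in U70 and 4.91 ± 0.80 in U135 (SD, n = 3). ITGB6 probe 1 went from 7.80, 8.69 and 8.88 to 9.61, 9.91 and 9.87, with no overlap, and rose by 1.34 ± 0.25 (adjusted p = 8.59e-04), and ITGB6 probe 2, elsewhere on the transcript, by 1.36 ± 0.27 (adjusted p = 0.00131). The newborn lambs (8.22, 8.41 and 9.05) were therefore at the level of early Texel fetuses.

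Probes of CPE, IGFBP4, ROBO1, CD247 and KIT went the other way in Texel. CPE probe 2 went from 12.99, 13.09 and 12.86 in T70 to 11.55, 11.46 and 11.77 in T135 and fell by 1.38 (SE 0.16, adjusted p = 2.59e-05). All T135 values were below all T70 values and above the newborn lambs (10.33, 10.17 and 10.33). IGFBP4 fell by 1.32 (SE 0.20, adjusted p = 1.65e-04), from 15.66, 15.29 and 15.07 to 14.41, 13.76 and 13.89. ROBO1 fell by 1.22 (SE 0.32, adjusted p = 0.00892), and one T135 fetus at 3.85 lay among the lambs, with 1 of 3 T135 arrays well above background. CD247 probe 1 fell by 1.01 (SE 0.24, adjusted p = 0.00448). CPE probe 1, at -0.98 ± 0.17 (adjusted p = 4.03e-04), and CD247 probe 2, at -0.94 ± 0.26 (adjusted p = 0.0108), stayed just under 2-fold. KIT probe 1 also passed (adjusted p = 0.0388), but none of its T135 arrays was well above background, so T70 was at least 1.27-fold higher, and the call was lost without any one of 5 of the 6 arrays (adjusted p up to 0.152). The brighter KIT probe 2 gave 5.21, 5.05 and 5.46 in T70 and 4.83, 4.95 and 4.99 in T135 and did not pass (-0.32 ± 0.18, adjusted p = 0.184). With the normexp background only 4 of these 9 calls held, those of both ITGB6 probes, CPE probe 2 and IGFBP4. T70 and T135 lay on different slides, so stage and slide cannot be told apart.

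**Figure D4:**
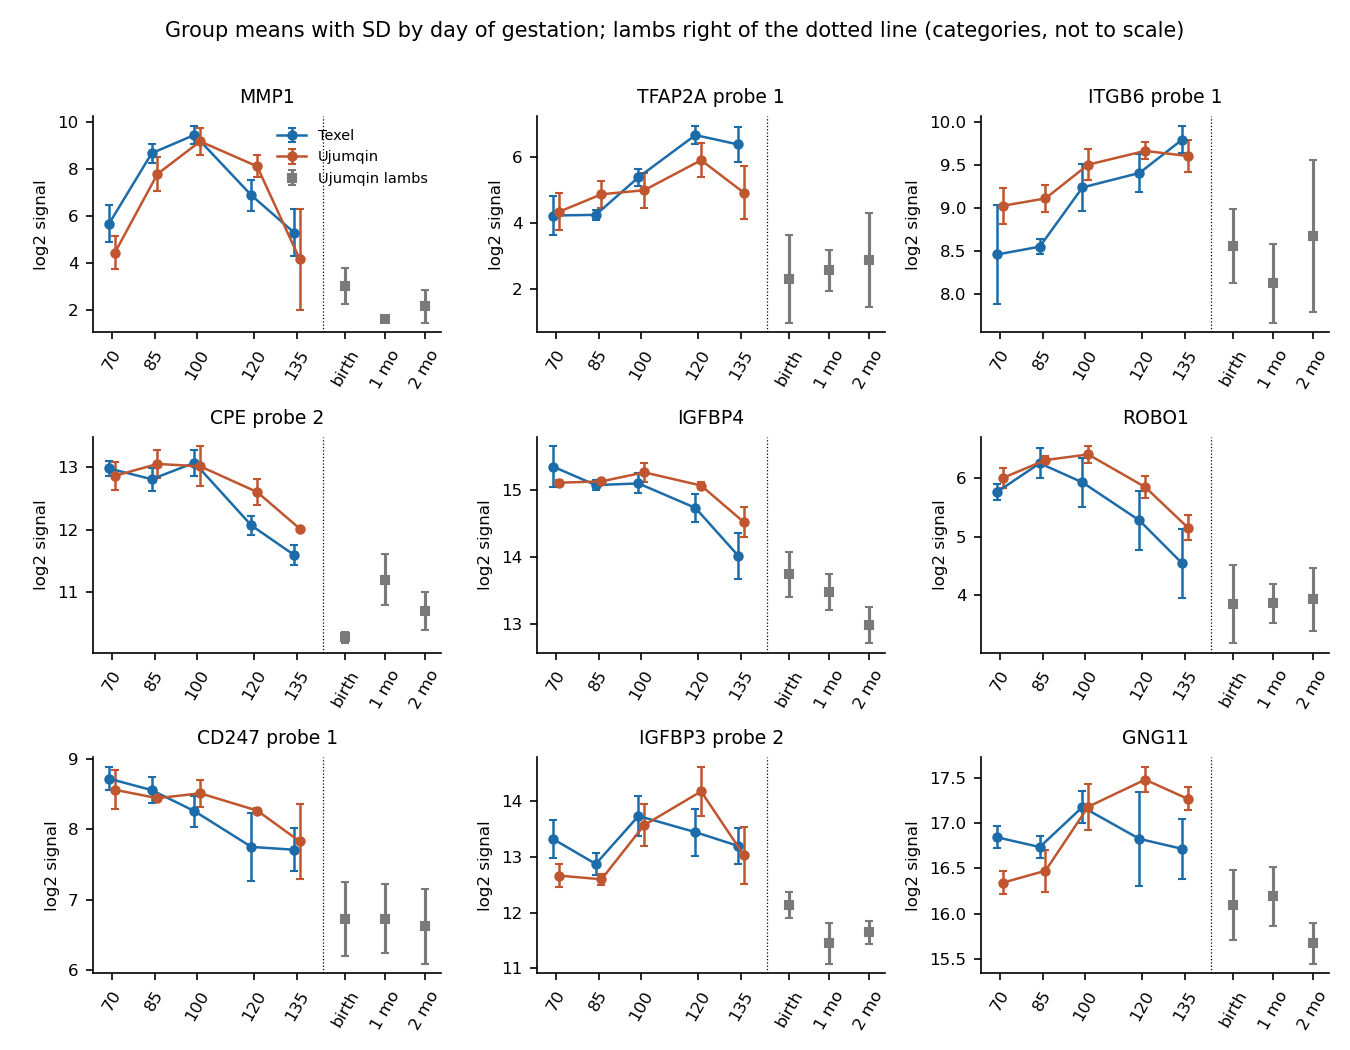
Group means with SD of log2 signal by day of gestation for 9 probes in Texel (blue) and Ujumqin (orange; 3 arrays per point, 4 at 100 d in Texel), with Ujumqin lambs (grey) to the right of the dotted line. MMP1 peaks at 100 d in both breeds, in Texel TFAP2A and ITGB6 are higher late in gestation, and CPE, IGFBP4 and ROBO1 go down before birth.

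Between 85 and 120 d in Ujumqin, 3 of 54 probes rose 2-fold or more, against 4.40% of all probes, and 0 fell, against 3.80% (limma, with 14 of 54 at an unadjusted p under 0.05 in either direction). For the unadjusted count the share of all probes was not taken. GNG11 went from 16.45, 16.26 and 16.72 to 17.52, 17.60 and 17.32 and rose by 1.01 ± 0.16 (SE, adjusted p = 9.40e-04). IGFBP3 probe 2 went from 12.72, 12.54 and 12.54 to 14.64, 13.76 and 14.13 and rose by 1.58 ± 0.27 (adjusted p = 0.00174), and probe 1 by 1.29 ± 0.29 (adjusted p = 0.00725). No value of U85 overlapped U120 for these probes. IGFBP3 was thus at its fetal maximum at 120 d in Ujumqin, above U135 (13.38, 12.44 and 13.28). U85 and U120 were on different slides.

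The breeds were compared at 85, 100 and 120 d, which the choice had not used. No probe of the 54 passed at any of these days (limma, adjusted p under 0.05 with 2-fold), against 0.0556%, 0.0139% and 0.0348% of all probes, nor in the average over the 3 days, against 0.542%. At an unadjusted p under 0.05 with 2-fold the counts were 1, 0, 4 and 0. The shares of all probes at that threshold were not counted, so these probes are described and not called. The 1 at 85 d was TFAP2A probe 2, at -1.23 ± 0.41 (SE, Texel minus Ujumqin, adjusted p = 0.338). The 4 at 120 d were PI3, both probes of CXCR4 and MMP1, all at lower values in Texel. PI3 gave 7.89, 7.76 and 8.13 in T120 and 9.40, 9.10 and 9.0 in U120, without overlap (-1.24 ± 0.20, adjusted p = 0.277). MMP1 gave -1.24 ± 0.40 (adjusted p = 0.415).

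CXCR4 probe 1 gave 9.63, 8.75 and 8.55 in T120 against 10.10, 9.88 and 10.08 in U120, and CXCR4 probe 2 gave 9.47, 8.94 and 8.63 against 10.10, 10.13 and 10.10. The U120 fetuses lay close together and above all T120 fetuses. The differences were -1.04 ± 0.31 and -1.10 ± 0.25 (adjusted p = 0.400 and 0.378). In 1 fit over all 10 fetal groups, which shares the spread among them, both passed at 120 d (adjusted p = 0.0208 and 0.0110). The first T120 array lay on another slide, and within the slide of the others CXCR4 probe 1 differed by -1.37 (adjusted p = 0.0499). All T120 fetuses were labelled male and all U120 fetuses female, so at 120 d breed and sex cannot be told apart. Averaged over the 3 days, CPE probe 1 had an adjusted p of 0.0461 with a difference of only -0.35 ± 0.10, and PI3 one of 0.0519 at -0.83 ± 0.23. PI3 was lower in Texel in the means of all 3 days.

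**Figure D5:**
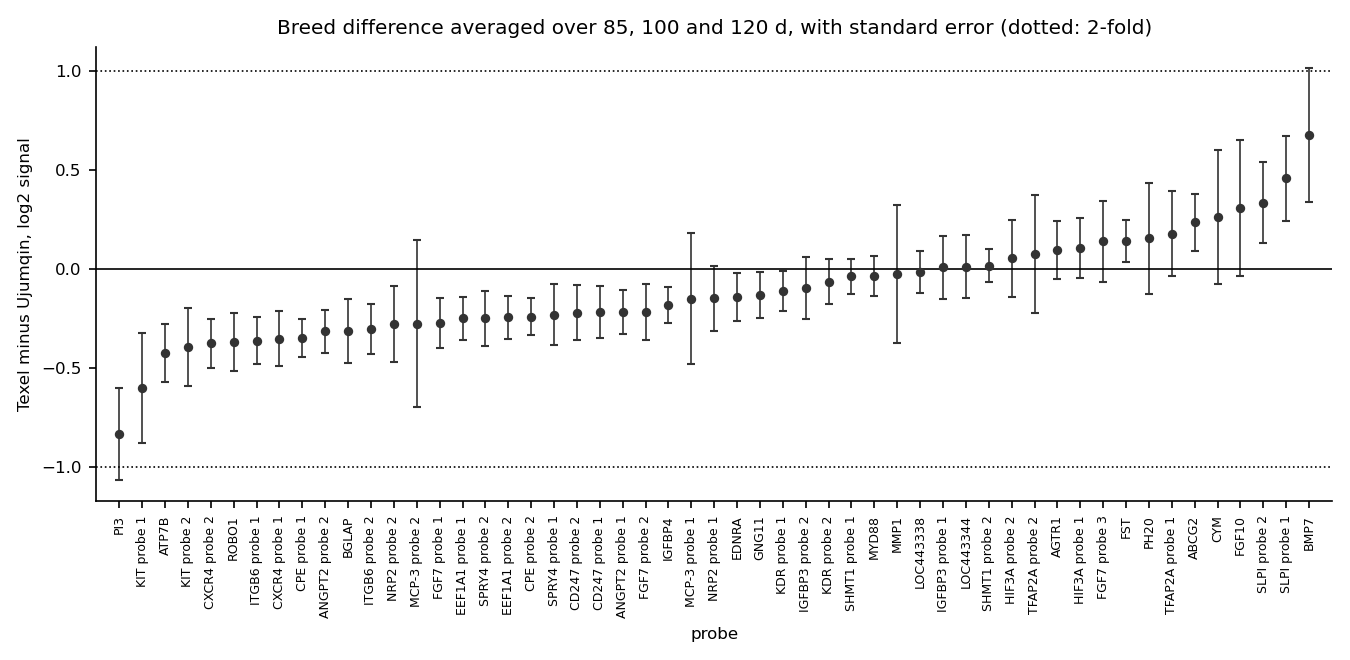
Texel minus Ujumqin difference in log2 signal, averaged over 85, 100 and 120 d with its standard error, for 53 of the 54 probes in order of size, with the 2-fold lines dotted. All points lie within 2-fold, from PI3 at -0.83 to BMP7 at 0.68.

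At 70 and 135 d, which served for the choice in Ujumqin, the breeds are described without a test. The Texel mean was 2-fold or more away from the Ujumqin mean at 70 d for MMP1 (1.24) and MCP-3 probe 2 (1.02), and at 135 d for MMP1 (1.14), TFAP2A (1.46 and 1.77), KIT probe 1 (lower in T135, where no array was well above background) and MCP-3 (1.37 and 1.69). MCP-3 probe 1 gave 9.15, 7.80 and 9.11 in T135 and 7.11, 7.33 and 7.51 in U135, and single fetuses of both breeds ranged from 7.11 to 10.16 over gestation, and those of T100 alone from 7.43 to 10.16.

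Each pathway was read from gene lists that include the chosen probes, so their medians and 2-fold counts follow in part from the choice. Of the insulin-like growth factor axis, 10 genes were on the array with 18 probes, 3 of them among the 54. The list's median difference between U135 and the highest lamb mean was 0.44, with 0 at 2-fold or more, and besides IGFBP3 and IGFBP4 the probes of IGFBP2 (0.75), IGF1 (0.73) and IGF2 (0.47) were lower after birth by less than 2-fold. In Texel from 70 to 135 d, 1 of the 18 rose, against 10.3% of all probes, and 5 fell, against 11.0%. Growth factor signalling, with 48 probes and 8 among the 54, had a median of -0.07, and only the chosen KIT probes reached 2-fold. BMP4 gave 0.59 and 0.50. Among matrix genes other than collagen (13 probes, 1 among the 54) the median was 0.47, with MMP2 at 0.86, TIMP1, an inhibitor of such proteases, at 0.64, and MMP14 at 0.58. From 70 to 135 d in Texel, 7 of the 13 fell, against 11.0% of all probes. Genes of developing muscle (8 probes, 1 among the 54) had a median of 0.70. There both FST probes reached 2-fold, MYF5, a myogenic factor, gave 0.92 and 0.83, and MYOD1, another, 0.57 and 0.26.

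Other lists held few or none of the 54 probes. The summed signal of the fetal and imprinted list was 122473 to 192919 in U135 and 24267 to 38818 at 2 months. That of the cell cycle was 63204.5 to 79079 in U135, 39733 to 48752 at birth and 35417 to 72602 at 2 months. That of stress and redox genes went up, from 69231 to 86712 in U135 to 114925 to 121935 at 2 months. The median differences of the lists stand beside -0.31 over all probes. The medians were -0.16 for the cell cycle (16 probes, of which 10 fell in Texel from 70 to 135 d, against 11.0% of all probes), 0.20 for fetal and imprinted genes (4), -0.78 for hormones and their receptors (39, with AGTR1), -0.68 for cytokines and chemokines (34), -1.34 for interferon-stimulated genes (7), -0.85 for lipid metabolism (18), -0.80 for glucose metabolism (18), -1.0 for ion channels and neural genes (10) and -0.89 for stress and redox genes (11). A probe of the thyrotropin receptor TSHR and one of the fructose transporter SLC2A5 were well above background on all U135 arrays and on 1 of 9 lamb arrays each, and one of the glutamate receptor GRIA2 on all U135 arrays and on 0 of 9, as TFAP2A probe 1 was. None of the 3 is among the 54.

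Markers of other cell types moved between fetus and lamb as well. The summed signal of the endothelial probes (KDR and TIE1, 2 of 7 listed genes) went from 1651 to 2015 in U135 to 986 to 2041 at birth, 949 to 1252 at 1 month and 610 to 739 at 2 months. Of its 6 probes, 2 are chosen KDR probes, so this sum follows in part from the choice. TIE1, the endothelial marker outside the 54, did not stand lower than in U135 at all lamb ages (-0.29 and -0.47 against the highest lamb mean). Leukocyte probes (8 of 14 listed genes) were higher after birth, with sums of 3280 to 4180 in U135, 4661 to 5696 at birth, 6524 to 8101 at 1 month and 7673 to 11124 at 2 months. Of these, 0 of 16 were 2-fold lower, while the T cell receptor chain CD247 was lower. The erythroid marker HBB had sums of 169466 to 261395 in U135, 15855 to 188202 at birth, 13223 to 40826 at 1 month and 1329 to 6891 at 2 months. In the same order, the fibroblast marker DCN had 158626 to 173891, 86118 to 103603, 112241 to 123455 and 96060 to 168439. Adipocyte probes (5 of 7 genes) had 5591 to 7111, 5565 to 10270, 9887 to 14083 and 7679 to 18052. Liver probes (6 of 10) had 5165 to 7763, 2143 to 4959, 1892 to 3765 and 1238 to 4000. The endothelial, adipocyte and HBB sums overlapped U135 at birth, and that of DCN did at 2 months. No gene of the epithelium and nerve lists was on the array. The part of these cell types in the differences was not tested.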

How the data were processed

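The authors scanned each one-colour Agilent array and extracted processed intensity per spot with Feature Extraction 10.5, as deposited, and they also deposited a table of log2 values after quantile normalization, which served for choosing probes. The genome build was not given in the sources used here. From the intensity of the scanner files, control and outlier spots were dropped, repeated spots averaged, and the 40 arrays quantile-normalized in limma 3.58.1 (R 4.3.3), floored at 1 and expressed as log2. Tests covered the 14385 of 15008 probes that were well above background on any fetal array. Breeds were compared by limma on the arrays of 1 day, stages on the arrays of 1 breed, with Benjamini-Hochberg adjustment over all probes tested, and calls required an adjusted p under 0.05 with 2-fold (F test, the p alone). Symbols were updated through RefSeq for 46 of 54 probes. Python 3.11.15 (pandas 2.3.3, matplotlib 3.10.9) made tables and figures. Members and lists were chosen with earlier results of these data known. Of the 55 probes chosen, 1 enters no count, and 1 more is counted and not reported by itself. All other members may be named, with values of every array for the leading members, those with a second probe and any called between breeds. The methods give 3 ewes per breed and stage. T100 has 4 arrays, so fetuses there may share a dam, and p-values measure the spread between these samples. The number of arrays limits precision. Tested on simulated data, 3 arrays against 3, the comparison found 151 of 200 changed probes among 13574 and called 2 others. No 2 arrays were alike enough to be 1 library. Alternatives covered the scaling, background, deposited table, filter, floor, fit, test, trend, weights, sex, slide, replicate number, order of the choice and leaving out each array.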

Additional observations from a re-analysis of the deposited data

Results flagged for a closer look

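T100 was the only group with more than 3 arrays, and in it 1 array stood apart from the other 3 for 3 of 54 probes, where chance gives about 1 in 20. ANGPT2 probe 1 gave 9.46 against 9.09, 9.12 and 9.13, EEF1A1 probe 2 13.48 against 13.37, 13.38 and 13.39, and CPE probe 2 13.37 against 12.92, 12.98 and 13.00 (log2 signal). The 3 gaps are small beside the differences between fetuses and lambs. The breed difference at 120 d minus that at 85 d passed for none of the 54 probes (limma interaction, 0 at an adjusted p under 0.05, smallest 0.130 for CXCR4 probe 2, 7 at an unadjusted p under 0.05 with 2-fold). For this comparison the shares of all probes were not counted.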

How the results depend on the processing

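The median difference between U135 and the highest lamb mean was 0.94. It moved to 0.79 with 75th percentile scaling and to 0.51 with the normexp background and its offset of 50 (in which 4 of 54 reached 2-fold). The median was 1.29 against the mean of the 3 lamb means (47 of 54) and 1.37 within the slide of U135 and 2 months. These last 2 do not subtract the highest lamb mean, so they cannot be smaller and are a different measure. The median difference to the highest lamb mean ranged from 0.88 to 1.03 (without U135 replicate 1) leaving out 1 array. The 75th percentile scaling shifted the median of all probes by -0.25 between U135 and birth, and relative to all probes the set then stood at 1.31 against 1.25. The difference reversed for MMP1 without U135 replicate 2 (-0.42, against 2.64 without replicate 3) and for BMP7 with the normexp background (-0.049), a floor of 16 (-0.51) and without 2 month replicates 1 or 3 (-0.074 and -0.071). Of the 54, the choice kept 52 on the scanner values, 40 with 75th percentile scaling, 28 with normexp, 43 against the mean of the lamb means and 44 to 53 without 1 array. The counts of breed differences were 0 throughout at 85 d, 100 d and on average. At 120 d they were 2 in 1 fit over the 10 groups, 2 by the methods' t-test unadjusted (CXCR4 probe 2 and PI3; 0 adjusted), and 0 to 1 leaving out 1 array (CXCR4 probe 1 without T120 replicate 1). From 70 to 135 d in Texel, 9 calls became 4 with normexp and 8 to 11 leaving out 1 array. The Texel F test gave 18 calls, 13 to 22 leaving out 1 array, and U120 against U85 gave 3, or 2 to 3. Replicate numbers did not pair the samples (correlations of deviations -0.31 to 0.11), and with them as a replicate block the counts were 0, 0, 0 and 0 for the breeds, 15 for the F test, 9 and 3. A sex covariate could not be fitted at 120 d, and quantiles over the fetal arrays alone give no lamb values.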
